A study of Mus musculus with 4 samples.

Results

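Cul3 and 8 genes of the same ubiquitin ligase family were followed in group 2 innate lymphoid cells (ILC2s) of the mouse lung, to ask whether the higher Cul3 transcript seen under an antibody against CD226 is shared by its relatives. The members were chosen by gene symbol among the 17187 genes of the deposited table. They are the cullin scaffolds Cul1, Cul2, Cul3, Cul4a, Cul4b and Cul5, the RING protein Rbx1, the modifier Nedd8 and the CUL3 adaptor Keap1. All 9 have a column, and all 9 passed the filter on low values (a mean of 10 or more normalised reads over the 4 libraries), which 13010 genes passed.

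The cells were sorted as ILC2s, tissue lymphocytes known for making type 2 cytokines, from lungs of BALB/c mice, and no genetic change is named in the labels. Both groups were kept in culture for 18 hours. The anti-CD226 group (2 libraries) received an antibody to the costimulatory receptor CD226, and the isotype group (2 libraries) received a control antibody. The labels give 5 µg/mL without saying clearly whether this was also the dose of the isotype antibody, and they give no age or sex. The series' design text speaks of treated mice and PBS is the control's name in the deposited table; the sample labels were followed. They do not say whether libraries came from separate mice, pooled mice or separate cultures, so each p below is set by how much these particular libraries vary, and that variation may be technical only.

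Cullins are elongated scaffolds of multi-subunit ubiquitin ligases. The carboxy-terminal end of a cullin holds RBX1 or its relative RNF7, which brings in the enzyme charged with ubiquitin, and the other end holds an adaptor that picks the substrate. The ligase is switched on when NEDD8 is joined to the cullin, and off when the COP9 signalosome removes it. CUL3 takes its substrates through proteins with a BTB domain. KEAP1 is the best known of these and hands the transcription factor NRF2 to CUL3 for degradation. In mouse lymphocytes CUL3 is known for its part with BTB zinc finger proteins such as PLZF in natural killer T cells and BCL6 in follicular helper T cells.

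Because the question turns on the Cul3 gene alone among its family, its promoter is shown. The window runs from 250 bases before to 50 bases after the RefSeq start of Cul3 (GRCm38.p6, chr1:80340641-80340940, minus strand, printed 5′ to 3′ along the gene). The capitals mark TCTCGCGAGA, the inner 10 bases of the longest palindrome of the window (14 bases). It is known as a core promoter element and as a site of the BTB zinc finger protein Kaiso. The motif was picked after the window was read.
Cul3 promoter: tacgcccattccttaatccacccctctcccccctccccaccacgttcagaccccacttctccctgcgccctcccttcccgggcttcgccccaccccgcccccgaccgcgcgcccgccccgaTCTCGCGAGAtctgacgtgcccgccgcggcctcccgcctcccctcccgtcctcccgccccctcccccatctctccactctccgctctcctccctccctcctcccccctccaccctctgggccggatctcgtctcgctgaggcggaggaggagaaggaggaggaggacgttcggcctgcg

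The Cul3 window is 72.3% G and C, against a median of 52.7% over 32851 windows of the same length, and 6.45% of the windows have at least as much. TCTCGCGAGA begins 129 bases before the RefSeq start, which is base 80340690. The GENCODE gene used for positions and lengths below starts at base 80340480, 210 bases further along the gene, so the whole window lies upstream of the gene in that annotation. On both strands it was found in 153 of the 32851 windows (0.466%) and, of the 8 members with a window, in that of Cul3 alone. The other motifs searched on both strands were CACGTG, held by windows of Cul1 and Cul5 (7.15% of all windows), CCGGAAG, held by that of Nedd8 (8.86%), and TGACNNNGC, held by that of Cul5 (12.4%). In the Cul5 window CACGTG and TGACNNNGC share 2 bases. The matches are a description of the letters. Of the genes whose window holds TCTCGCGAGA, 113 were tested. Of these, 69 (61.1%) had a higher mean in anti-CD226 libraries, and their median log2 fold change was 0.05. Among 9011 tested genes with a window that lacks it the share was 52.2% and the median 0.01, and this difference was not tested. Cul3, chosen for its difference and the source of the motif, is counted among the 113 and the 69.

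The estimated depth of a library was between 12433715 and 17847311 reads, from its total divided by the value of 1 read, and the value of 3 reads, a floor for counting error only, was between 2.32 and 3.32 normalised reads. The 11 ILC2 markers, among them Gata3, Il1rl1 and Il5, all had a column and were abundant, with a sum of 181900 and 178600 normalised reads in anti-CD226 libraries and 191800 and 192200 in isotype libraries. The sum was lower in both anti-CD226 libraries, while 7 of the 11 genes were higher and 4 lower by log2 fold change. Of 18 macrophage markers, 11 have a column and 7 were tested (6 higher, 1 lower). Their sum was 595 in replicate 1 and 1928 in replicate 2 of anti-CD226, against 304 and 292 in the isotype libraries. The sums of T cell, NK cell, epithelial and endothelial markers overlapped between the groups, those of mast cell and basophil markers were 79.3 and 158 against 191 and 182, and the 3 B cell markers were not analysed here. In bulk libraries fewer cells of a type and less RNA per cell cannot be told apart.

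Cul3, the scaffold of the BTB ligases, is a minus-strand gene of chromosome 1, bases 80264923 to 80340480 (GENCODE M21, GRCm38, the assembly that mm10 denotes). It had 1007 and 762 normalised reads in anti-CD226 replicates 1 and 2, against 330 and 354 in isotype replicates 1 and 2. Both anti-CD226 libraries stood above both isotype libraries, and the lower of them was 2.15 times the higher isotype library. In estimated reads these values are 978 and 691 against 299 and 458, and, as cDNA of little RNA was amplified, a read does not stand for a molecule of its own. The means were 884 ± 173 and 342 ± 16.6 (SD, n = 2 each), a log2 fold change of 1.35 on log2(value + 1), the 59th highest of the 13010 genes tested. Cul3 was chosen for this difference, so no test of it is given.

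The order of the anti-CD226 libraries differed between Cul3 and the macrophage markers. Cul3 was higher in replicate 1, while the marker sum was higher in replicate 2 (595 against 1928). The part of other cells in the Cul3 value was not tested. Against the isotype mean, Cul3 was higher by 1.56 in replicate 1 and by 1.15 in replicate 2 on the log2 scale. The isotype libraries differed by 0.10 on that scale. The annotation has 2 short predicted transcripts inside the gene on its own strand, Gm37902 and Gm37262, which stood at or below 20.9 normalised reads in every library. None of the 4949 words of 31 bases in the annotated Cul3 transcripts occurs in a transcript of another gene on either strand.

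**Figure D1:**
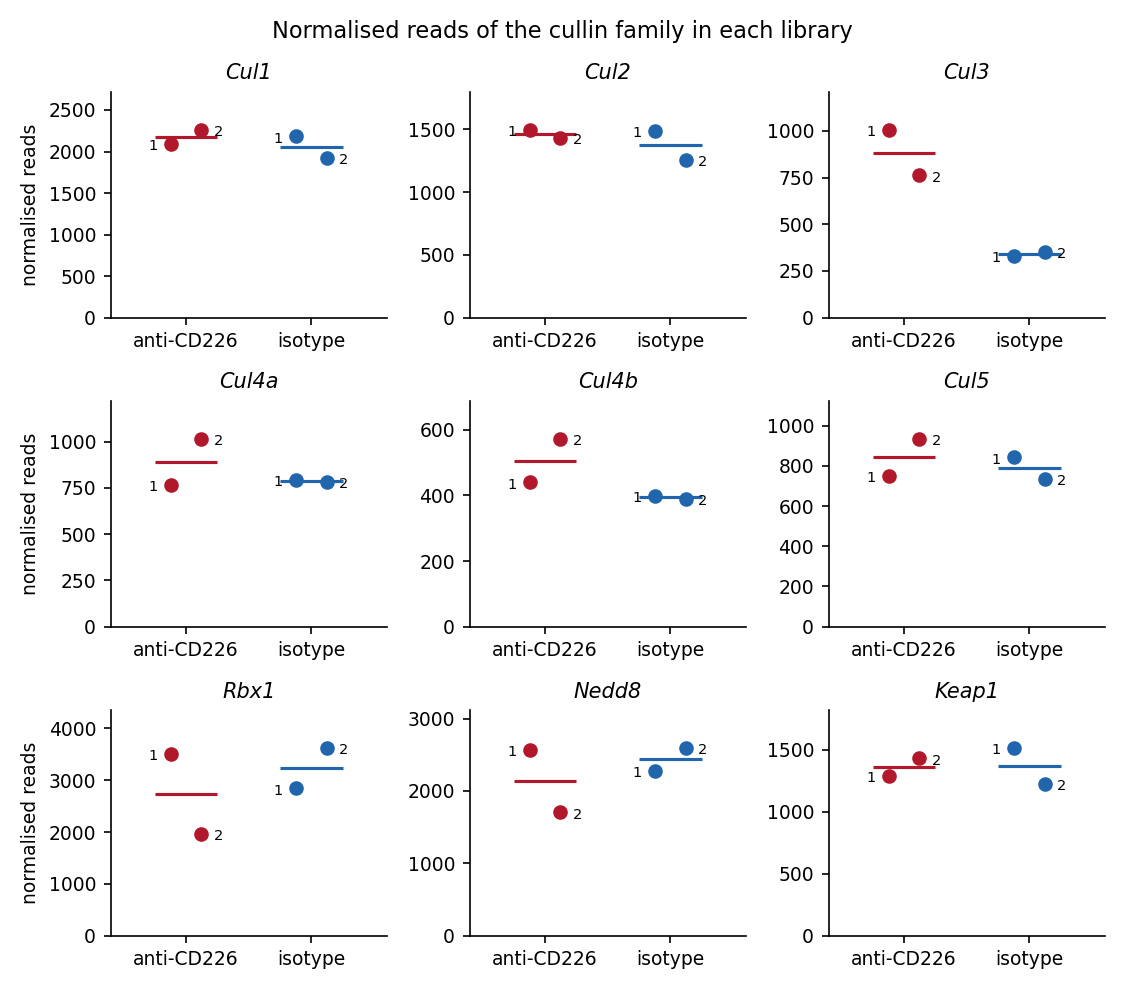
Normalised reads (y axis, from 0, a scale for each gene) of the 9 family members in anti-CD226 and isotype libraries (x axis). Points are libraries numbered by replicate and lines are means of 2 libraries; Cul3 stands at 1007 and 762 in anti-CD226 against 330 and 354 in isotype libraries, and the groups overlap in 7 of the other 8 members.

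None of the other 8 members had a difference of the size seen in Cul3. In limma's test over 13010 genes with Benjamini-Hochberg adjustment, 0 of the 8 passed an adjusted p of 0.05 (adjusted p between 0.982 and 0.997), where the background was 0% of all genes. At an unadjusted p below 0.05 there were 0 of 8 members, against 308 of all genes tested (2.37%). Of the 8, 5 were higher and 3 lower on average. Their median log2 fold change was 0.09, beside 0.01 over all genes tested, of which 51.1% were higher. With the trend on transcript length removed from each library, the median of the 8 was 0.0039, beside 0.00145 over the tested genes of known length. The upper bounds of their 95% intervals ran from 0.30 to 0.81 on the log2 scale. Cul3 was chosen for its difference and has no interval, so these bounds were not tested against its value.

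The other 5 cullin scaffolds were all slightly higher on average (median 0.10), and none passed the test. With the trend on transcript length removed, their median was 0.05 and Cul5 was lower (-0.06). Leaving out 1 library turned the sign of each of them but Cul4b, whose log2 fold change was 0.16 without anti-CD226 replicate 2 and 0.54 without replicate 1 (limma, adjusted p = 0.063). Cul4b, which builds DDB1 ligases of the nucleus, had the largest difference of these. It had 440 and 573 normalised reads in anti-CD226 libraries, against 399 and 390 in isotype libraries. Both anti-CD226 values lay above both isotype values, by 1.10 times at the closest. Its log2 fold change, 0.35, had a standard error of 0.20 (95% interval -0.11 to 0.81; limma, adjusted p = 0.98). Among all genes tested, 13.8% had both anti-CD226 libraries above both isotype libraries, and 1 of the 8 members did.

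Cul4a, the partner of Cul4b in DDB1 ligases, had 767 and 1016 normalised reads in anti-CD226 libraries, against 793 and 783 in isotype libraries. Replicate 2 alone was high, and replicate 1 lay below both isotype libraries (log2 fold change 0.16, standard error 0.19, 95% interval -0.29 to 0.61). Cul1, the scaffold of the F-box (SCF) ligases that clear cell cycle regulators and the NF-kB inhibitor, had 2088 and 2264 against 2184 and 1928, a log2 fold change of 0.08 with an interval of -0.30 to 0.47. Its groups overlapped.

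Cul2, which with elongins and VHL forms the ligase of hypoxia inducible factors, had 1499 and 1435 normalised reads in anti-CD226 libraries, against 1490 and 1256 in isotype libraries. The log2 fold change was 0.10, with an interval of -0.30 to 0.50. Cul5, which carries the SOCS adaptors that restrain cytokine receptors, had 749 and 936 against 842 and 734 (0.09, interval -0.35 to 0.53). In both genes the groups overlapped, and adjusted p was 0.98 in limma's test for each of these 4 cullins.

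Rbx1 and Nedd8, the short members that serve nearly all cullins, were lower on average, and neither passed the test. Rbx1, the RING subunit, had 3501 and 1967 normalised reads in anti-CD226 replicates 1 and 2, against 2842 and 3628 in isotype libraries. Its log2 fold change, -0.29, had a standard error of 0.28 (interval -0.93 to 0.35; limma, adjusted p = 0.98). Nedd8, the ubiquitin-like switch of the cullins, had 2569 and 1703 against 2277 and 2598 (-0.22, standard error 0.22, interval -0.73 to 0.30). In both genes replicate 2 of anti-CD226 was the lowest of the 4 libraries, and replicate 1 lay within the isotype range.

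Without anti-CD226 replicate 2, Rbx1 and Nedd8 stood at 0.12 and 0.08 on the log2 scale. Without replicate 1 they stood at -0.71 and -0.51 and both passed limma's adjusted p of 0.05 (0.0052 and 0.040), as did 1633 of all genes in that fit, which assumes that the lone library varies like the isotype group. Part of the sequence of both genes is not theirs alone. Of the 31-base words of Rbx1, 4.75% occur in the pseudogene Rbx1-ps, which had 45.5 and 20.9 normalised reads in anti-CD226 and 31.2 and 33.4 in isotype libraries. Of those of Nedd8, 11.7% occur in Gmpr2, which overlaps it on the other strand. The treatment of strand is not given in the sources used here, so reads of the overlap cannot be told apart.

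Keap1, the BTB adaptor that brings NRF2 to CUL3, had nearly the same mean in both groups. It had 1292 and 1430 normalised reads in anti-CD226 libraries, against 1517 and 1226 in isotype libraries. Both anti-CD226 values lay between the isotype values, with a log2 fold change of -0.01, a standard error of 0.18 and an interval of -0.43 to 0.42. Without correction for length, Keap1 had 1.28 and 1.88 normalised reads for each of Cul3 in anti-CD226 libraries, against 4.59 and 3.46 in isotype libraries, ratios that are free of library scaling. Gm16754, antisense to Keap1, holds 9.02% of its words and had 23.2 and 42.9 against 25.7 and 22.05 normalised reads.

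**Figure D2:**
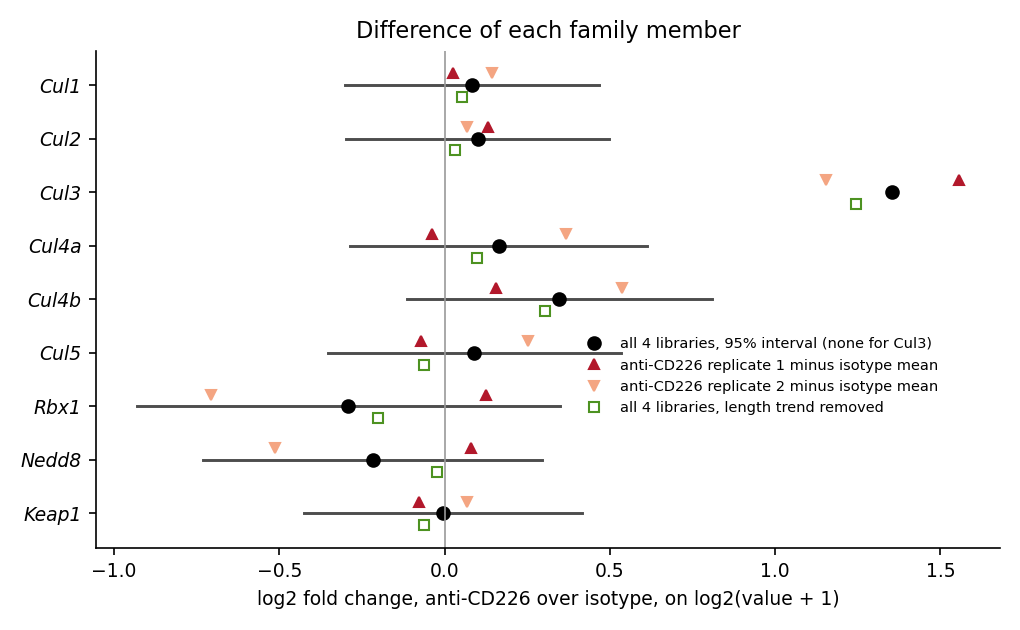
Log2 fold change of each member, anti-CD226 over isotype (x axis), from all 4 libraries with a 95% interval (black; none for Cul3, which was chosen for its difference), for each anti-CD226 replicate against the isotype mean (triangles), and with the trend on transcript length removed (green squares). Cul3 lies at 1.35, the other 8 members between -0.29 and 0.35.

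Per kilobase of the longest annotated transcript Cul3 was the least abundant of the 9 members in isotype libraries. The order there was Nedd8 with 2959 ± 275, Rbx1 with 1931 ± 332, Cul1 with 650 ± 57.2, Keap1 with 380 ± 57.0, Cul2 with 359 ± 43.1, Cul4a with 211 ± 1.89, Cul5 with 133 ± 12.9, Cul4b with 118 ± 1.84 and Cul3 with 72.7 ± 3.52 normalised reads per kilobase (SD, n = 2). Of these neighbours, Keap1 and Cul2 overlapped.

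In anti-CD226 libraries Cul3 was at 188 ± 36.8 normalised reads per kilobase, in seventh place of the 9 members. Its values of 214 and 162 overlapped those of Cul4a above it (206 and 273) and of Cul4b below it (131 and 171), while Cul5 followed at 142 ± 22.3 with values of 126 and 157, which overlapped those of Cul4b. Nedd8 and Rbx1 also overlapped there. With the length of all exons joined in place of the longest transcript, Cul3 kept these places and the levels of Keap1 and Cul2 changed order in the isotype libraries.

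Of the summed per-kilobase level of the 6 cullins, Cul3 made up 12.4% and 8.73% in anti-CD226 libraries and 4.32% and 5.14% in isotype libraries. The share does not depend on library scaling. The sum of the other 5 cullins was 1515 and 1692 normalised reads per kilobase in anti-CD226 libraries, against 1553 and 1388 in isotype libraries, so it overlapped. Cul1 made up the largest part of the sum in every library.

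**Figure D3:**
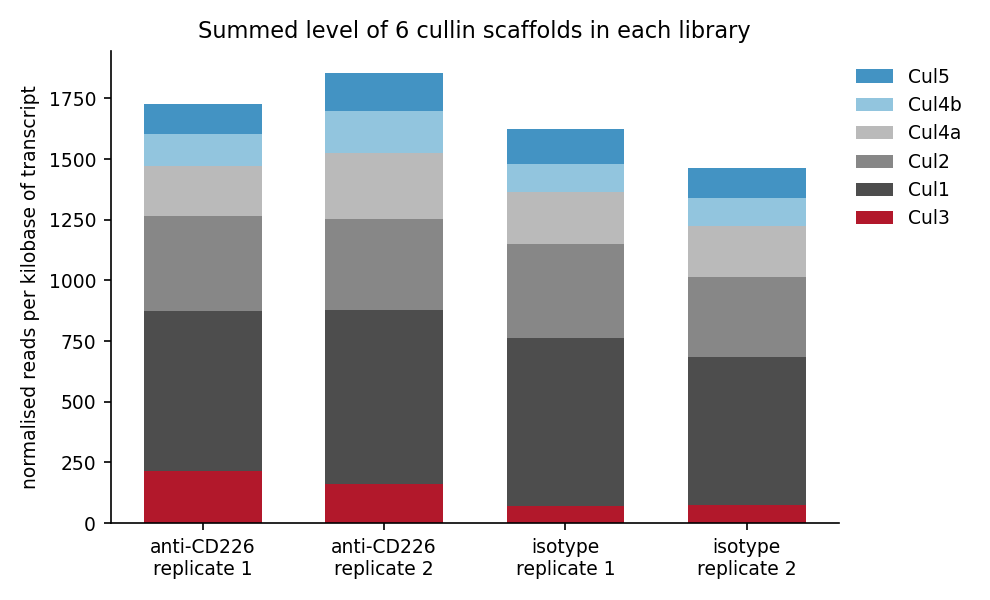
Normalised reads per kilobase of the longest transcript (y axis, from 0) of 6 cullin scaffolds, stacked, in each of the 4 libraries (x axis). The Cul3 part at the bottom is 214 and 162 in anti-CD226 and 70.2 and 75.2 in isotype libraries, and Cul1 is the largest part in all 4.

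Transcript length moved with the values of 3 of the 4 libraries, most in anti-CD226 replicate 2. Tested genes were cut by length into 10 bins of equal size. In the bin with the shortest transcripts (median 624 bases) the median log2 difference from the isotype mean was -0.51 in anti-CD226 replicate 2 and 0.07 in replicate 1. In the bin with the longest (median 7836 bases) it was 0.42 and below 0.01. As deviations from each gene's mean over the 4 libraries, the medians of the shortest and longest bins were 0.20 and -0.10 in anti-CD226 replicate 1 and -0.39 and 0.32 in anti-CD226 replicate 2. They were 0.03 and 0.01 in isotype replicate 1 and 0.23 and -0.20 in isotype replicate 2. Rbx1 and Nedd8 have transcripts of 1675 and 824 bases, and the 6 cullins and Keap1 have 3161 to 5945. With the trend on length removed from each library, the log2 fold change was 1.24 for Cul3, 0.30 for Cul4b, -0.20 for Rbx1, -0.02 for Nedd8 and -0.06 for Cul5, which changed sign; the part of length in these values was not otherwise tested. In anti-CD226 replicate 1, whose differences from the isotype mean followed length little, Cul3 was 1.56 higher than the isotype mean and the other 8 members lay between -0.08 and 0.16.

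**Figure D4:**
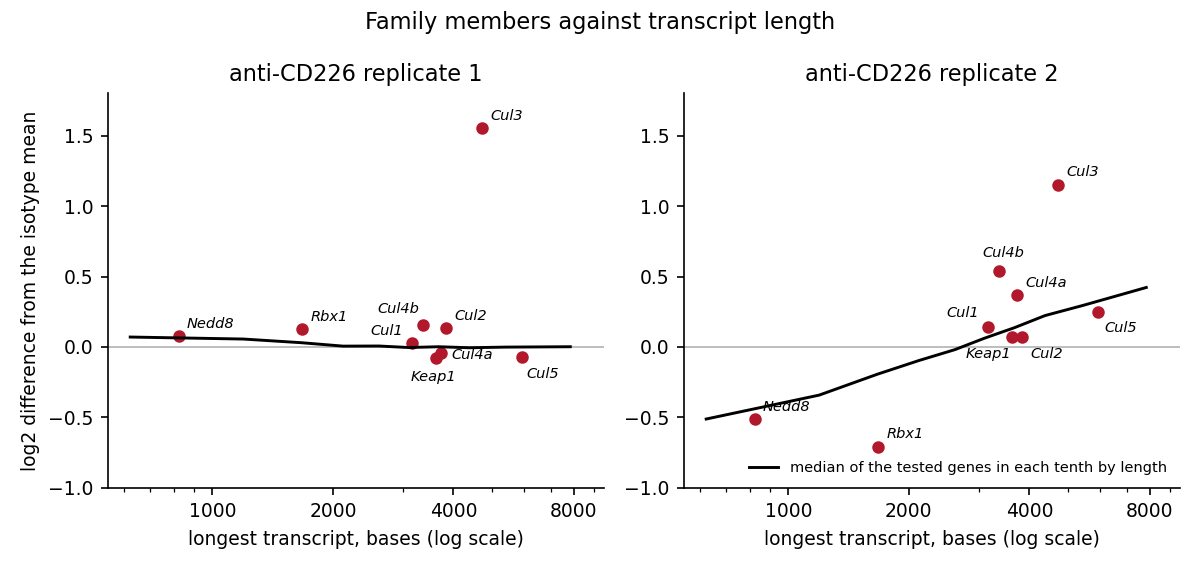
Log2 difference of each member from the isotype mean (y axis) against the length of its longest transcript (x axis, log scale), for anti-CD226 replicate 1 (left) and replicate 2 (right). The line joins the median differences of tested genes in each of 10 bins by length; Nedd8 at 824 bases lies at 0.08 in replicate 1 and at -0.51 in replicate 2, while Cul3 stands apart from the line in both, at 1.56 and 1.15.

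The genes whose values over the 4 libraries were most like those of Cul3 came from outside the family. The measure was the root mean square difference of centred log2 values over the 4 libraries, among 10336 genes whose mean was at least 50, and genes of like change are near by construction. Nearest were the cytokine gene Il22 (0.12), the kinase gene Slk (0.17), the scaffold gene Magi3 (0.21), Arhgap32, a GTPase activating protein (0.22), and the selenoprotein gene Selenon (0.24). Slk had 2186 and 2009 normalised reads in anti-CD226 libraries, against 792 and 1062 in isotype libraries. Of the other members Cul4b was nearest (0.58), in place 562, and Rbx1 farthest (0.84), in place 9338. The protein-coding genes tested within 200 kb of Cul3 were Fam124b, with 44.3 and 44.1 against 27.6 and 47.1, and Dock10, a guanine nucleotide exchange factor of lymphocytes, with 2111 and 3374 against 2586 and 1796. In both genes the groups overlapped.

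The wider pathway was read from 9 lists with 203 entries, of which 194 genes were tested. None of the 194 passed limma's adjusted p of 0.05 in either direction, and none had an unadjusted p below 0.05 (background 0% and 2.37%). Of the 194, 96 were higher and 98 lower, and the median was -0.0017 on the log2 scale. Both anti-CD226 libraries lay above both isotype libraries in 28 and below in 22, where the background was 13.8% and 13%. The genes named from each list are the 2 of smallest p, a choice that favours groups that do not overlap. Besides Kbtbd7, the highest log2 fold change of the 194 was 0.39.

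Of the other scaffolds and the second RING partner, 2 were higher and 2 lower, and none passed. Cul9, a large scaffold that binds p53, had 159 and 159 normalised reads in anti-CD226 libraries, against 138 and 112 in isotype libraries (log2 fold change 0.35). Rnf7, the RING partner of Cul5, had 1183 and 576 against 1089 and 1169 (-0.45). As in Rbx1, the anti-CD226 libraries split, with replicate 2 low. Cul9 was at 0.16 and Rnf7 at -0.31 with the trend on length removed.

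Of 9 genes that join NEDD8 to cullins, 3 were higher and 6 lower, and none passed. The median log2 fold change was -0.01. Dcun1d5 and Dcun1d3, which help to load NEDD8, had the smallest p. Dcun1d5 had 1880 and 1373 normalised reads in anti-CD226 libraries, against 1968 and 1997 in isotype libraries (-0.30). Dcun1d3 had 243 and 205 against 270 and 259 (-0.24). In both the groups did not overlap. Over the list both anti-CD226 libraries were lower in 2 of 9 genes and higher in 0, beside 13% and 13.8% of all genes. Dcun1d5 stood at -0.08 without anti-CD226 replicate 2, and at -0.53 without replicate 1. Dcun1d5 was at -0.28 and Dcun1d3 at -0.40 with the trend on length removed.

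Of 12 genes of the COP9 signalosome and of NEDD8 removal, 1 was higher and 11 lower (median -0.11), and none passed. The median deviation of its genes from their own 4-library means was -0.16 in anti-CD226 replicate 2 and 0.05 in replicate 1. Its transcripts have a median of 1802 bases. With the trend on length removed the median log2 fold change was -0.03, and the part of length was not tested. Cops9, the smallest subunit, had 1445 and 601 normalised reads in anti-CD226 libraries, against 1239 and 1584 in isotype libraries. Senp8, a NEDD8 protease, had 77.2 and 28.7 against 61.9 and 66.4. With the trend on length removed, Cops9 went from -0.59 to -0.37 and Senp8 from -0.44 to -0.50. In both replicate 2 was low and replicate 1 within or above the isotype range. The exchange factor Cand1, which frees cullins to take new adaptors, had 2101 and 3233 against 2405 and 1847, and its relative Cand2 had 220 and 376 against 231 and 244. Of the 3 genes in that list 2 were higher and 1 lower, and none passed. Cand1 went from 0.31 to 0.12 and Cand2 from 0.28 to 0.14 with the trend on length removed.

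None of the BTB adaptors of CUL3 tested passed. Of 52 listed, 46 were tested, and 27 were higher and 19 lower. The median was 0.05 on the log2 scale, and -0.02 with the trend on length removed. The groups stood apart upward in 8 of the 46 and downward in 7, where the share over all genes was 13.8% upward and 13% downward. Kbtbd7, a Kelch adaptor, had the largest difference, with 42.6 and 27.6 normalised reads in anti-CD226 libraries, against 7.64 and 28.3 in isotype libraries. Its groups overlapped, and its log2 fold change of 1.15 had a standard error of 0.62 (limma, adjusted p = 0.98). It was 0.27 without isotype replicate 1 and 2.03 without isotype replicate 2. Klhl28, another Kelch protein, had 446 and 445 against 307 and 402 (0.34). Kbtbd7 was at 1.05 and Klhl28 at 0.18 with the trend on length removed. Zbtb16, which encodes PLZF, was at or below 9.92 normalised reads in every library and was not tested.

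The adaptors of the other cullins were centred near 0. Of 41 F-box and linker genes of CUL1, 21 were higher and 20 lower (median 0.01). Skp1a, the linker of all F-box proteins, had 2990 and 1948 normalised reads in anti-CD226 libraries, against 3030 and 3267 in isotype libraries (-0.38), and Btrc, which recognises the NF-kB inhibitor and beta-catenin, had 233 and 293 against 201 and 206 (0.36). Of 34 elongin adaptors of CUL2 and CUL5, 14 were higher and 20 lower (median -0.02). Asb1 had 508 and 700 against 529 and 392 (0.39), and Fem1b, a CUL2 adaptor, had 681 and 701 against 624 and 508 (0.29). Skp1a and Btrc were at -0.30 and 0.33 with the trend on length removed, and Asb1 and Fem1b at 0.24 and 0.12.

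Of 24 DDB1 adaptors of CUL4, 13 were higher and 11 lower (median 0.03). Dcaf15, the receptor through which aryl sulfonamides degrade a splicing factor, had 513 and 362 normalised reads in anti-CD226 libraries, against 580 and 596 in isotype libraries (-0.45). Brwd1, a bromodomain protein, had 501 and 690 against 445 and 467 (0.37). Dcaf15 was at -0.42 and Brwd1 at 0.17 with the trend on length removed. Among these 6 adaptors other than Asb1 the groups did not overlap, and none passed limma's adjusted p of 0.05 (0.98 for each). Over the full lists the groups did not overlap in 13 of 41, 6 of 34 and 9 of 24 genes, where the share over all genes was 26.8% in either direction. Without anti-CD226 replicate 2, Skp1a stood at -0.07 and Dcaf15 at -0.20. Without replicate 1 they stood at -0.69 and -0.70.

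NRF2, the main substrate of KEAP1 and CUL3, and its targets were followed in 21 tested genes. None passed, and 13 were higher and 8 lower (median 0.03). Nfe2l2, which encodes NRF2, had 654 and 681 normalised reads in anti-CD226 libraries, against 524 and 597 in isotype libraries (0.25). Slc7a11, the cystine transporter, had 164 and 149 against 134 and 107 (0.38). In both genes the groups did not overlap, and adjusted p was 0.98 in limma's test. Nfe2l2 was at 0.27 and Slc7a11 at 0.18 with the trend on length removed. Over the list both anti-CD226 libraries were higher in 3 of 21 genes and lower in 0, beside 13.8% and 13% of all genes.

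**Figure D5:**
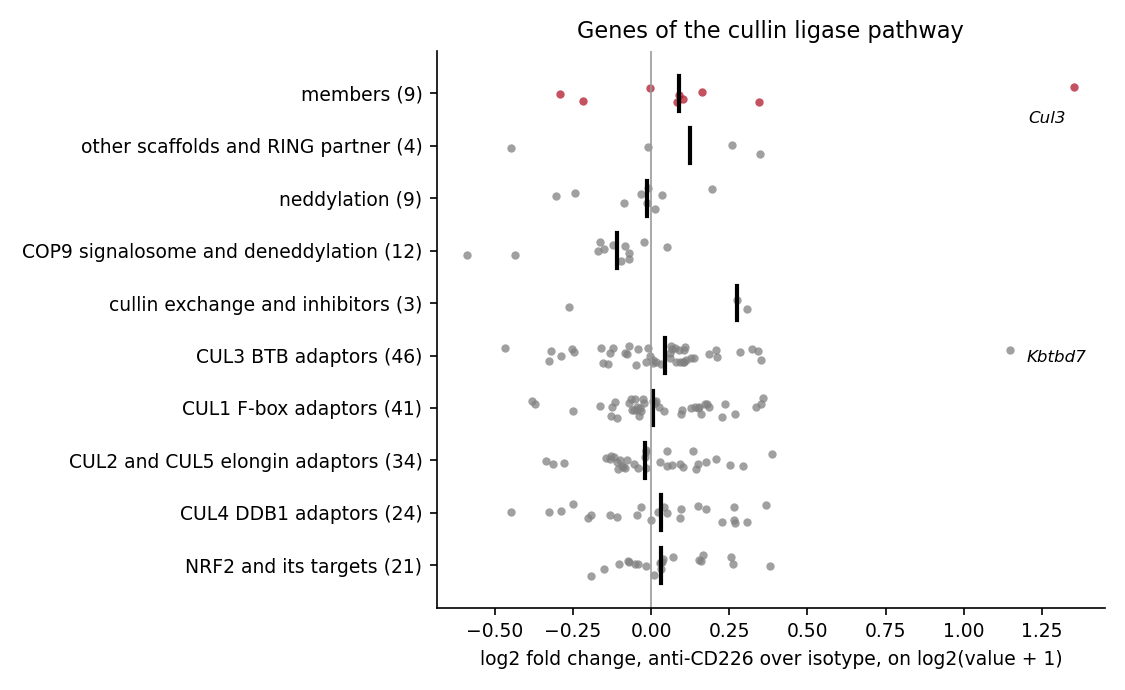
Log2 fold change, anti-CD226 over isotype (x axis), of the tested genes of the family and of 9 pathway lists (rows, with the number tested). Each point is a gene, with vertical jitter, and the bar is the median of the row; Cul3 at 1.35 and Kbtbd7 at 1.15 lie apart, and the highest of the other pathway genes is at 0.39.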

How the data were processed

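RNA of sorted lung ILC2s was sequenced from 4 libraries. Build mm10, Partek 10.0, STAR 2.7.8 and DESeq2, its version not stated, are named per the submitters' processing notes. How reads were counted, with what annotation and strand setting, is not given in the sources used here. The values the authors deposited are a normalised signal for each gene in each library. Between 73.5% and 75.1% of low values (from 0.5 to 1000 steps) were whole multiples of 1 step per library (tolerance 0.02), so no count model was run. Of the 17187 gene columns, 1089 were checked singly against the unit.

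Values were tested on log2(value + 1) with limma 3.58.1 (R 4.3.3), with a mean-variance trend, two-sided, without a replicate term, Benjamini-Hochberg adjusted over 13010 genes with a mean of 10 or more. The fit has 2 residual and 5.81 prior degrees of freedom; intervals are its moderated 95% intervals. An exact permutation test of 2 against 2 libraries cannot go below 0.333. Steps were tested on simulated data. Lengths and positions come from GENCODE M21 (97.5% of genes), promoters from RefSeq (GRCm38.p6). Members and lists were chosen with earlier results of these data known. Named are all members, from each list the 2 with the smallest p, and the 5 genes nearest to Cul3; others (Zbtb16, Gmpr2, Gm16754, Rbx1-ps, neighbours of Cul3) were chosen after their values were seen.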

Additional observations from a re-analysis of the deposited data

How the results depend on the processing

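The log2 fold change of Cul3 was between 1.15 and 1.56 over 15 alternatives chosen at the start and a crossed replicate block added later; the lowest and highest came from leaving out anti-CD226 replicate 1 and replicate 2. The count of genes called over all genes was 0 under the other pseudocounts, filters, scalings and without the variance trend or the length trend, and 12 to 1633 when a library was left out (1633 without anti-CD226 replicate 1, 53 without replicate 2, 12 and 17 without isotype replicates 1 and 2). The labels name no shared animal, batch or day, so the replicate numbers were not taken to pair libraries. The deviations of same-numbered libraries correlated at r = -0.24 across 13010 genes. With 2 libraries a group this value cannot tell whether libraries share an animal or a batch. The replicate block called 20 genes and the crossed replicate block 61, with 0 members other than Cul3 and 0 pathway genes in each. Leaving out a library called 0 to 2 of the 8 other members and 0 to 16 pathway genes, the higher counts all without anti-CD226 replicate 1.

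Leaving out 1 library turned the sign of several log2 fold changes, which ran from -0.0063 to 0.17 for Cul1, -0.022 to 0.22 for Cul2, -0.040 to 0.37 for Cul4a and -0.071 to 0.25 for Cul5. They ran from -0.71 to 0.12 for Rbx1, -0.51 to 0.079 for Nedd8 and -0.16 to 0.15 for Keap1. In the pathway they ran from -0.97 to 0.068 for Rnf7, -1.22 to 0.044 for Cops9, -1.14 to 0.26 for Senp8, -0.0040 to 0.62 for Cand1 and -0.11 to 0.66 for Cand2. Without a change of sign they ran from 0.16 to 0.54 for Cul4b, 0.27 to 2.03 for Kbtbd7, -0.69 to -0.073 for Skp1a, -0.53 to -0.077 for Dcun1d5, -0.36 to -0.12 for Dcun1d3, -0.70 to -0.20 for Dcaf15, 0.20 to 0.50 for Cul9, 0.15 to 0.53 for Klhl28, 0.19 to 0.52 for Btrc, 0.16 to 0.62 for Asb1, 0.15 to 0.44 for Fem1b, 0.14 to 0.60 for Brwd1, 0.22 to 0.54 for Slc7a11 and 0.16 to 0.35 for Nfe2l2. The lowest values for Rbx1, Nedd8, Rnf7, Dcun1d5, Cops9, Senp8, Skp1a and Dcaf15 came from leaving out anti-CD226 replicate 1. So did the highest values for Cand1, Cand2, Asb1 and Brwd1. The pathway genes among these were named for a small p in the same libraries. With the length trend removed Cul5 was at -0.064. The cause was not tested. A fit without 1 library assumes that the lone library of its group varies like the other group. With 2 libraries a group, a difference of the size seen in Cul4b could not be told from the spread between libraries. Nor was any larger one called in the main fit, where log2 fold changes ran from -4.28 to 4.99. The smallest adjusted p over the 13010 genes was 0.98 in limma's test. A lack of calls therefore does not set the other members or the lists apart from other genes.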
